A study of Mus musculus with 6 samples.

Results

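Microglia are the resident macrophages of the retina, and 9 of their genes were followed here in bulk RNA. The 9 were taken by symbol for what they are known for, by a rule with no measured value but with earlier results of these data known: Cx3cr1, Csf1r, Tmem119 and P2ry12 mark microglia at rest (homeostatic genes), and Trem2, Tyrobp, Cd68, Ctss and Aif1 are tied to the response to amyloid and to phagocytosis. Each of the 9 was found among the 19401 genes listed in at least 1 library, and 8 of the 9, all but Aif1, were among the 15537 genes with enough reads to be tested.

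The libraries came from 5XFAD mice, a model of Alzheimer's disease in which hemizygous human transgenes, among them APP, carry familial mutations on a B6SJL background, so that mice of every library carried the transgenes, and RNA of mice without them was not analysed here. Efavirenz (EFV), an anti-HIV drug that at low dose activates the cholesterol hydroxylase CYP46A1, was given in drinking water at 0.08 mg per kg of body weight according to the sample labels (the study's methods give a slightly higher dose) from 3 to 9 months of age, and the control mice drank water with the vehicle, dilute Tween 80. At 9 months, retina plus retinal pigment epithelium (RPE) was pooled from 5 to 6 mice per library, with 3 libraries per group. The question was whether EFV-treated and control retinas differed in the RNA of these microglial genes.

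Microglia at rest survey the tissue with fine processes. The fractalkine receptor encoded by Cx3cr1 and the purinergic receptor encoded by P2ry12 read signals from neurons, and the receptor encoded by Csf1r keeps the cells alive. Close to amyloid plaques in the brain, microglia lower the homeostatic genes and, through the lipid-sensing receptor TREM2 and its adaptor TYROBP (DAP12), raise genes of lysosomes and lipid handling. In whole retina these cells are few, and in bulk RNA fewer microglia and less RNA per microglia cannot be told apart.

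The expected counts (the reads that the authors' program assigned to each gene) summed to 23455167 to 24590278 per library. Abundant rod RNA marked every library as retina (summed FPKM of 6 rod genes of 22965.9 to 24696.9), where FPKM is the number of sequenced fragments scaled to the length of the transcript and the size of the library. A pair of libraries stood apart. Control 3 had a summed FPKM of 6 lens genes of 1496.1 against 14.18 to 80.61 in the other 5 libraries. The study's methods describe the pooled mice as male, but the summed FPKM of 4 Y-linked genes (Ddx3y, Eif2s3y, Kdm5d and Uty, chosen after the data were seen) was 25.2 in EFV 3 against 51.9 to 69.8 in the other 5, so the library labelled EFV 3 went against this description. Results for the 9 genes are therefore also given without control 3 and without EFV 3.

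Of the 9 genes, 6 had a promoter sequence in the RefSeq table of mouse genome GRCm38.p6. Gene positions are given on the same build. In the 250 bases before the RefSeq start of transcription, the core sequence GGAAGT of the sites bound by PU.1, the transcription factor of the myeloid lineage, was present on either strand in 1 of these 6 promoters, that of P2ry12, and in 19.7% of 32851 promoters of mouse genes. The Aif1 window reaches 31 bases into the outermost span of its gene, and the other 5 windows lie outside their genes. The longer form GAGGAAGT was present in 0 of the 6 and in 2.44% of all promoters. The P2ry12 sequence (chr3:59262986-59263235, minus strand, 5′ to 3′) is given because it was the single match. Its GGAAGT core, in capitals, starts 51 bases before the RefSeq start of transcription. For P2ry12, unlike the other 5, the bases just after this start were not found in a transcript of the gene in GENCODE, another annotation. The match describes these letters and not a bound site.
P2ry12: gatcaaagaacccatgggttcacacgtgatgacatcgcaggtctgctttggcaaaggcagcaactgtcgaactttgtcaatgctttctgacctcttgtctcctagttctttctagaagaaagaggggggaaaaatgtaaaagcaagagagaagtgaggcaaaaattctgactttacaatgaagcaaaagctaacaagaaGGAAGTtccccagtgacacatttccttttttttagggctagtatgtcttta

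The levels of the 9 genes in FPKM spanned from cathepsin S down to allograft inflammatory factor 1. The mean FPKM over the 6 libraries was 6.54 for Ctss, 2.72 for Csf1r, 2.42 for Tyrobp, 1.58 for P2ry12, 1.30 for Cd68, 1.13 for Cx3cr1, 0.980 for Trem2, 0.887 for Tmem119 and 0.405 for Aif1. In this order, 3 steps separated ranges that did not overlap between libraries, from Ctss to Csf1r, from Tyrobp to P2ry12 and from Tmem119 to Aif1. The other 5 pairs of neighbours overlapped in their ranges over the libraries. Compared within each library, P2ry12, from 1.35 to 1.87, lay above Cd68, Cx3cr1, Trem2 and Tmem119 in every library. Among the 17705 listed genes with an Entrez identifier, Ctss lay at the 53.6 percentile by mean FPKM and Aif1 at the 24.1 percentile. The counts behind these levels ranged from 5 reads (Aif1 in EFV 2 and EFV 3) to 292 reads (Csf1r in control 1), and the 9 genes together held 718 to 890 reads per library.

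**Figure D1:**
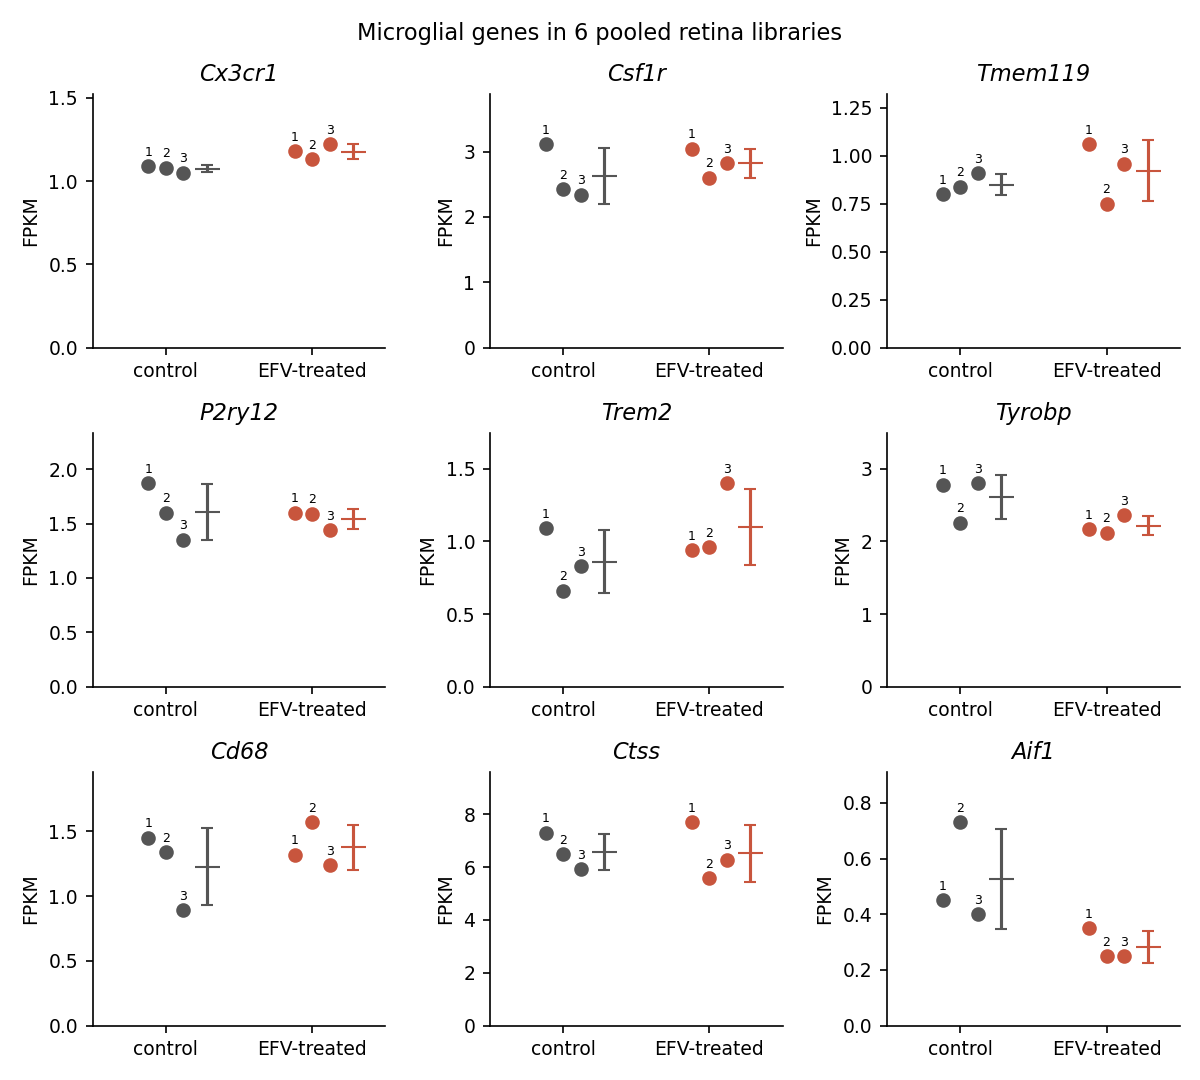
FPKM (vertical axes, from 0) of each of the 9 microglial genes in the 3 control and 3 EFV-treated libraries, with replicate numbers above the points and the mean ± SD of each group beside them. The points of the groups are separate for Cx3cr1, between 1.05 and 1.09 in control and 1.13 and 1.22 in EFV-treated libraries, and for Aif1, and overlap for the other 7 genes.

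None of the 8 genes tested differed between EFV-treated and control retinas at an adjusted p of 0.05 (edgeR quasi-likelihood test, Benjamini-Hochberg adjusted over 15537 genes, adjusted p = 0.999 for each of the 8). The same test called 0% of all genes, or 0 of 15537, with 472 at an unadjusted p of 0.05 or less (3.04%) and none of the 8 among them. DESeq2 called 11 of 15517 genes (0.0709%) at an adjusted p of 0.05 and none of the 8. The fitted log2 fold changes of EFV-treated over control ranged from -0.26 (Tyrobp) to 0.33 (Trem2), with a median of 0.09 in the 4 homeostatic genes and 0.06 in the 4 response genes tested, beside 0.001 over all genes tested. None of the 8 reached an unadjusted p of 0.05 in DESeq2, where 1.74% of genes did, or in a Poisson model, which takes counting as the sole error, where 25.1% did. The groups did not overlap in normalized counts for Cx3cr1, 1 of the 8, and 8.14% of all genes tested did not overlap. With 3 libraries against 3, a two-sided exact permutation test cannot go below p = 0.10. Nothing in the labels says that pools are independent in litter or cage, so the p-values measure the spread between these pools.

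**Figure D2:**
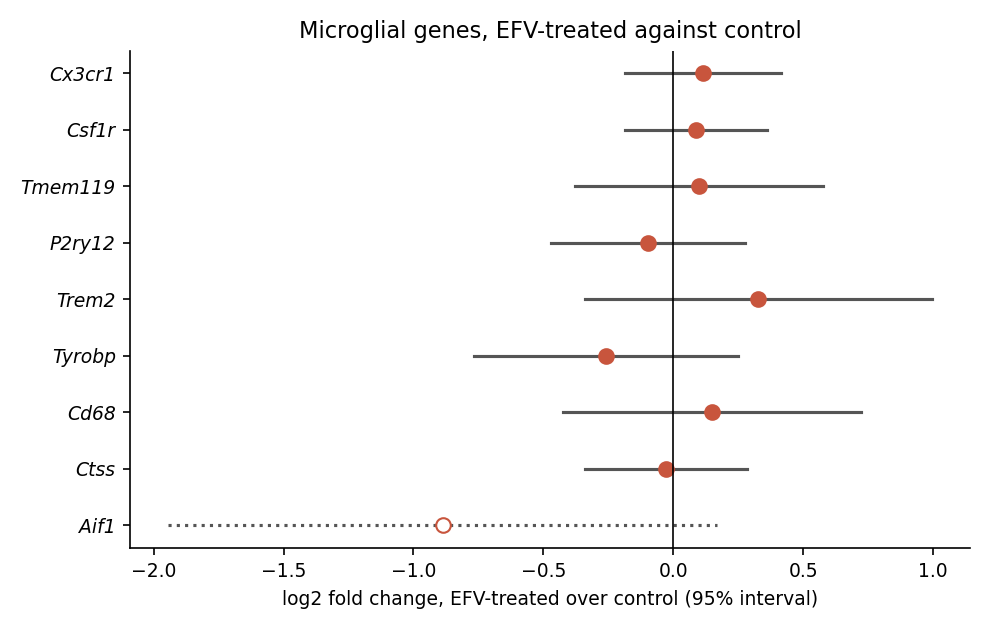
Log2 fold change of EFV-treated over control (horizontal axis) for each gene, as a point with its 95% interval from edgeR. Every interval includes 0; Aif1 (open point, dotted line) had too few reads for the count minimum and comes from a fit of all genes without it.

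Among the homeostatic receptors, Cx3cr1 (Entrez gene 13051, chr9:120048683-120068296), which binds the neuronal chemokine fractalkine, had an FPKM of 1.09, 1.08 and 1.05 in control libraries 1, 2 and 3 and of 1.18, 1.13 and 1.22 in EFV libraries 1, 2 and 3. Each EFV-treated library thus lay above each control library, from 99, 94 and 95 against 107, 102 and 109 reads. The log2 fold change was 0.11 ± 0.13 (SE, n = 3 per group), with a 95% interval from -0.19 to 0.42, and did not pass the test of edgeR (unadjusted p = 0.411). Higher values without overlap were found in 3.95% of all genes tested. The coefficient of variation of the normalized counts was 1.98% in control and 2.73% in EFV-treated libraries, below the 9.95% that counting error alone gives at this depth. Without control 3 or EFV 3 the log2 fold change was 0.10 and 0.09.

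Csf1r (Entrez gene 12978), the receptor for the survival factors CSF1 and IL-34, had an FPKM of 3.11, 2.42 and 2.34 in control libraries 1, 2 and 3. In EFV libraries 1, 2 and 3 its FPKM was 3.04, 2.60 and 2.82. Library 1 was the highest of each group and the groups overlapped. Its log2 fold change was 0.09 ± 0.12 (SE), with a 95% interval from -0.19 to 0.36 (edgeR, unadjusted p = 0.485), and it was 0.01 without control 3, 0.10 without EFV 3 and 0.22 without control 1. Over the 6 libraries Csf1r followed the mean profile of the 8 tested genes, of which it is itself 1, more closely than the other 7 did (Pearson r = 0.984).

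Tmem119 (Entrez gene 231633, chr5:113793729-113800396), a surface protein used to tell microglia from other macrophages, had an FPKM of 0.80, 0.84 and 0.91 in control and of 1.06, 0.75 and 0.96 in EFV-treated libraries 1, 2 and 3. Its highest and its lowest value were both in EFV-treated libraries, EFV 1 and EFV 2. The log2 fold change of 0.10 ± 0.21 (SE, edgeR, unadjusted p = 0.647) turned to -0.01 without EFV 1 and was 0.15 without control 3 and 0.08 without EFV 3. P2ry12 (Entrez gene 70839, chr3:59216271-59262985), the ADP receptor that guides microglial processes, had an FPKM of 1.87, 1.60 and 1.35 in control and of 1.60, 1.59 and 1.44 in EFV-treated libraries. The EFV-treated values all lay within the control range. The log2 fold change of P2ry12 was -0.10 ± 0.17 (SE, edgeR, unadjusted p = 0.577) and turned to 0.01 without control 1, with -0.19 without control 3 and -0.04 without EFV 3. Of its exonic bases, 9 (0.353%) overlap Med12l on the opposite strand, and the other 8 genes share no exonic base with another gene within their RefSeq spans.

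The lipid receptor gene Trem2 (Entrez gene 83433, chr17:48346401-48352276) had an FPKM of 1.09, 0.66 and 0.83 in control and of 0.94, 0.96 and 1.40 in EFV-treated libraries 1, 2 and 3, from 16 to 35 reads. EFV 3 was the highest and control 2 the lowest, and the groups overlapped. A log2 fold change of 0.33 ± 0.29 (SE, edgeR, unadjusted p = 0.296) was the highest of the 8 tested genes, and its 95% interval ran from 0.790-fold to 1.99-fold. It was 0.12 without EFV 3, the library with the low Y-linked RNA, 0.30 without control 3 and 0.53 without control 1.

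Tyrobp (Entrez gene 22177, chr7:30413782-30417582), which encodes the adaptor that carries the TREM2 signal, had an FPKM of 2.78, 2.26 and 2.80 in control and of 2.17, 2.12 and 2.36 in EFV-treated libraries 1, 2 and 3. The overlap came from control 2, which lay below EFV 3. For Tyrobp the log2 fold change was -0.26 ± 0.22 (SE), with an interval from 0.588-fold to 1.19-fold (edgeR, unadjusted p = 0.278), and stayed between -0.35 and -0.21 when each library was left out (-0.21 without control 3 and -0.30 without EFV 3). Receptor and adaptor thus had fitted values of opposite sign, neither of which passed the test.

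Cd68 (Entrez gene 12514, chr11:69664213-69666170), a glycoprotein of lysosomes that is used to stain phagocytic microglia, had an FPKM of 1.45, 1.34 and 0.89 in control and of 1.32, 1.57 and 1.24 in EFV-treated libraries 1, 2 and 3. Control 3, the library with lens RNA, was the lowest. For Cd68 a log2 fold change of 0.15 ± 0.25 (SE, edgeR, unadjusted p = 0.572) turned to -0.04 without control 3 and was 0.23 without EFV 3. Ctss (Entrez gene 13040, chr3:95526786-95556405), which encodes the lysosomal protease cathepsin S, had an FPKM of 7.29, 6.49 and 5.91 in control and of 7.69, 5.58 and 6.28 in EFV-treated libraries, with 618 reads in total in each group. Library 1 was again the highest of each group, and the lowest was EFV 2. For Ctss the log2 fold change was -0.03 ± 0.14 (SE, edgeR, unadjusted p = 0.842), with an interval from 0.790-fold to 1.22-fold, and it ranged from -0.16 without EFV 1 to 0.06 without EFV 2, with -0.10 without control 3 and 0.003 without EFV 3.

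Aif1 (Entrez gene 11629, chr17:35170986-35176083), which encodes IBA1, the calcium-binding protein stained to show microglia in tissue sections, was the least abundant of the 9. Its counts were 9, 14 and 8 in control libraries 1, 2 and 3 and 7, 5 and 5 in EFV libraries 1, 2 and 3, or 31 against 17 reads, and its FPKM was 0.45, 0.73 and 0.40 against 0.35, 0.25 and 0.25. Each EFV-treated library lay below each control library, a pattern of 4.18% of the genes tested, which do not include Aif1. The nearest libraries were EFV 1 with 7 reads and control 3 with 8. Aif1 had fewer than the count minimum of 10 in 5 libraries, so it was fitted together with all genes without the minimum, where the log2 fold change was -0.89 ± 0.48 (SE), with a 95% interval from -1.94 to 0.17 (edgeR, unadjusted p = 0.0912, adjusted p = 0.999). In that fit 3% of 19385 genes had an unadjusted p of 0.05 or less, and Aif1 was not among them. The fitted value lay between -1.06 (without EFV 1) and -0.58 (without control 2) when each library was left out, with -1.05 without control 3 and -0.81 without EFV 3. None of 12 alternative fits reversed its sign. The unadjusted p was 0.0272 and 0.0276 in limma on log2 FPKM (pseudocounts of 0.1 and 1), 0.0356 in the Poisson model and 0.250 in DESeq2, and the lowest adjusted p among the 12 was 0.182, in the Poisson model.

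Across the libraries the 9 genes did not separate the groups. Their summed CPM (counts scaled to library size) were 36.1, 31.8 and 29.6 in control libraries 1, 2 and 3 and 35.7, 31.1 and 32.7 in EFV libraries 1, 2 and 3, so the groups overlapped, with library 1 the highest in each. By normalized counts, the highest level of a gene was in control 1 for Csf1r and P2ry12, in control 2 for Aif1, in control 3 for Tyrobp, in EFV 1 for Tmem119 and Ctss, in EFV 2 for Cd68 and in EFV 3 for Cx3cr1 and Trem2. The lowest was in control 2 for Trem2, in control 3 for Cx3cr1, Csf1r and Cd68, in EFV 2 for Tmem119, Tyrobp and Ctss, and in EFV 3 for P2ry12 and Aif1. Every library but control 1 and EFV 1 thus held the lowest level of at least 1 gene. The mean log2 deviation of the 4 homeostatic genes minus that of the 4 tested response genes was -0.12, 0.07 and 0.05 in control and 0.10, -0.03 and -0.07 in EFV-treated libraries, with positive and negative values in each group, so that this difference did not separate the groups.

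**Figure D3:**
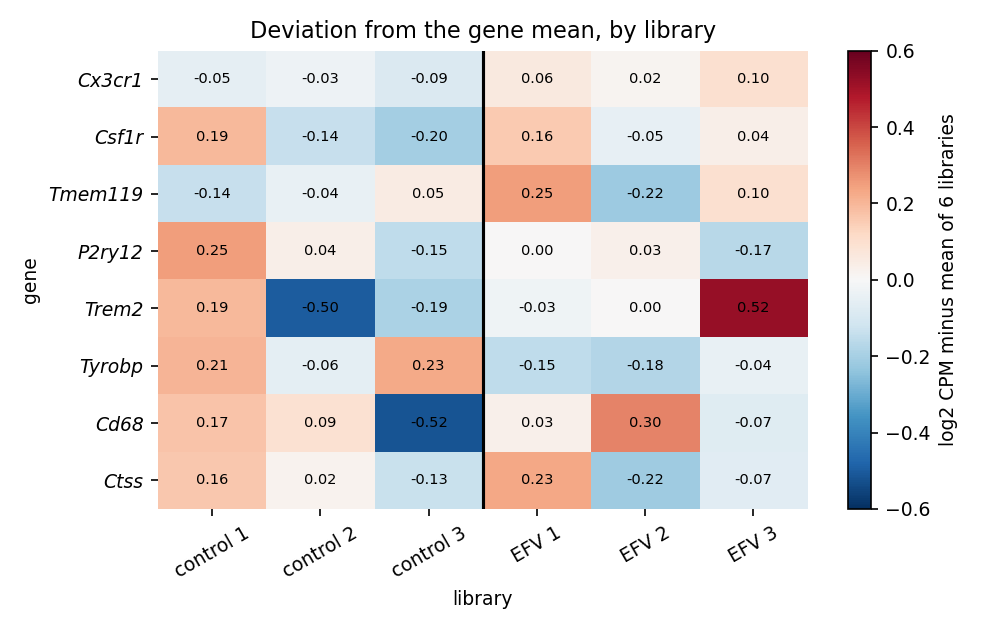
Deviation of the log2 CPM of the 8 tested genes (rows) from the mean of each gene over the 6 libraries (columns), with the black line between control and EFV-treated libraries. High and low values are spread over both sides of the line, from -0.52 for Cd68 in control 3 to 0.52 for Trem2 in EFV 3.

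Among 12288 other genes with a mean FPKM of at least 1, those that followed the mean profile of the 8 tested genes most closely over the 6 libraries were Stk32c (Pearson r = 0.982), Slc1a1 (0.979), Orai3 (0.978), 2900011O08Rik (0.977) and Alg5 (0.973). The 8 genes themselves ranged from -0.09 (Tyrobp) to 0.984 (Csf1r), with 0.464 for Cx3cr1 and 0.585 for Trem2. With 6 libraries, for which the labels give no batch, 124 of the genes compared had an r of at least 0.9. The values are a description only.

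The ligands of the receptors were measured in the same libraries. Cx3cl1, the fractalkine of neurons that CX3CR1 binds, had a high mean FPKM of 34.6 in control (33.07 to 37.14 over 3 libraries) and 34.3 in EFV-treated retinas (33.66 to 35.02). Il34, a neuronal ligand of CSF1R, had an FPKM of 3.97 ± 0.694 and 4.27 ± 0.443, and Csf1, the other ligand of CSF1R, of 1.41 ± 0.117 and 1.59 ± 0.0231. Of these 3 ligand genes none passed the test, with log2 fold changes of -0.03, 0.10 and 0.10 (edgeR, unadjusted p = 0.556, 0.509 and 0.406). Single libraries moved each of these values, Il34 to 0.004 without control 2 and 0.23 without control 1, and Csf1 to 0.05 without control 2. Cx3cl1 changed sign, to 0.02 without control 1, and was -0.06 without control 3. Per length, the ligand Cx3cl1 was thus more abundant in the retina than its receptor Cx3cr1, whose mean FPKM over the 6 libraries was 1.13.

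No gene of the signal under TREM2 and TYROBP passed the test. Of 9 listed, 6 were tested, with 3 fitted values above 0 and 3 below and none at an unadjusted p of 0.05. Syk, the kinase recruited by TYROBP, had 21, 13 and 22 reads in control and 8, 16 and 11 in EFV-treated libraries 1, 2 and 3, which overlapped, with a log2 fold change of -0.69 ± 0.36 (SE, edgeR, unadjusted p = 0.0892). This value was -0.48 without EFV 1 and -0.997 without EFV 2 (unadjusted p = 0.0386). Plcg2, which encodes the phospholipase under SYK, had a log2 fold change of 0.32 ± 0.27 (edgeR, unadjusted p = 0.261), from 35 to 70 reads, which was 0.03 without EFV 3 and 0.52 without EFV 1. Inpp5d, the lipid phosphatase SHIP1 that restrains this signal, had 87 to 141 reads and a log2 fold change of 0.08 ± 0.21, which was -0.08 without control 1, -0.05 without EFV 3 and 0.30 without control 3. Of 7 myeloid transcription factors 3 had fitted values above 0 and 4 below, again none at an unadjusted p of 0.05. Spi1, which encodes PU.1, had a log2 fold change of 0.31 ± 0.38 (edgeR, unadjusted p = 0.438) at a mean FPKM of 0.253 in control and 0.320 in EFV-treated retinas, and Irf8, a partner of PU.1, of 0.22 ± 0.23 (unadjusted p = 0.363). With 1 library left out, Spi1 ranged from 0.09 (without control 1) to 0.45 (without control 2) and Irf8 from 0.11 (without control 2) to 0.37 (without control 3).

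No further homeostatic gene passed the test. Of 11 listed, 10 were tested, 7 with a fitted value above 0 and 3 below, none at an unadjusted p of 0.05, with a median log2 fold change of 0.06 beside 0.001 over all genes tested. Olfml3, a secreted protein of microglia, had a log2 fold change of -0.34 ± 0.18 and did not reach an unadjusted p of 0.05 in edgeR. Its value was -0.50 without EFV 3 (unadjusted p = 0.0291, adjusted p = 0.998), -0.21 without control 3 and -0.18 without EFV 2. Cst3, which encodes the protease inhibitor cystatin C, had a mean FPKM of 820.6 in control and 839.1 in EFV-treated retinas, a level at which other retinal cells also contribute.

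Of 21 further genes of the microglial response to amyloid, 16 were tested, 11 with fitted values above 0 and 5 below, with a median log2 fold change of 0.04. Gpnmb, a transmembrane glycoprotein of phagocytes that pigment cells also make, was the single one at an unadjusted p of 0.05 and was higher in EFV-treated retinas, as were 1.49% of all genes tested. Its FPKM was 2.30, 1.55 and 2.11 in control and 2.26, 3.43 and 3.27 in EFV-treated libraries 1, 2 and 3. EFV 1 lay within the control range. For Gpnmb the log2 fold change was 0.57 ± 0.19 (SE, edgeR, unadjusted p = 0.0132, adjusted p = 0.999) and lay between 0.43 (without control 2, unadjusted p = 0.0503) and 0.74 (without EFV 1) when each library was left out, with an unadjusted p of 0.0596 without EFV 2. The summed FPKM of 5 melanocyte genes was 6.38, 3.02 and 5.10 in control and 4.57, 9.49 and 8.05 in EFV-treated libraries, with none of the 5 at 0, and it was highest in the same libraries, EFV 2 and EFV 3, and lowest in the same library, control 2, as Gpnmb. Of these 5, 4 had fitted values above 0 and 1, Tyr, lay below (-0.12 ± 0.21). Of 7 RPE genes 6 had fitted values above 0, among them Rpe65, the retinoid isomerase of RPE, at 0.58 ± 0.25 (edgeR, unadjusted p = 0.0437, adjusted p = 0.999). Lrat had 0.65 ± 0.27 (edgeR, unadjusted p = 0.0391, adjusted p = 0.999). Rlbp1, the most abundant of the 7, lay below 0 (-0.03 ± 0.05). The summed FPKM of the 7 overlapped, with 287, 236.4 and 272.3 in control and 275.6, 268.7 and 282.5 in EFV-treated libraries. The part of pigment cells in the Gpnmb value was not tested.

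Markers of microglia at amyloid plaques differed widely in their reads, and 5 of the 21 listed had too few to be tested. Itgax (CD11c) had 5, 0 and 1 reads in control and 2, 0 and 1 in EFV-treated libraries 1, 2 and 3. Cst7 (cystatin F) had 0, 1 and 0 reads in control and 0, 2 and 0 in EFV-treated libraries. Clec7a (dectin 1), chosen with these after its values were seen, had 8, 9 and 4 reads in control and 10, 8 and 9 in EFV-treated libraries. No difference in these 3 genes was detectable at this depth. Others of the list had many reads, among them Spp1 (osteopontin) with 300 to 335 and Lpl (lipoprotein lipase) with 316 to 369, both also named after their values were seen. Apoe, the lipid carrier that Müller glia also make, had by contrast a mean FPKM in control of 436.8 ± 37.6 and in EFV-treated retinas of 428.1 ± 33.8 (SD, n = 3), with a log2 fold change of -0.05 ± 0.07 (SE, edgeR, unadjusted p = 0.556). Fth1, the ferritin heavy chain, had a mean FPKM of 571.4 ± 9.94 and 565.7 ± 8.03. Such levels cannot be assigned to microglia in whole retina.

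**Figure D4:**
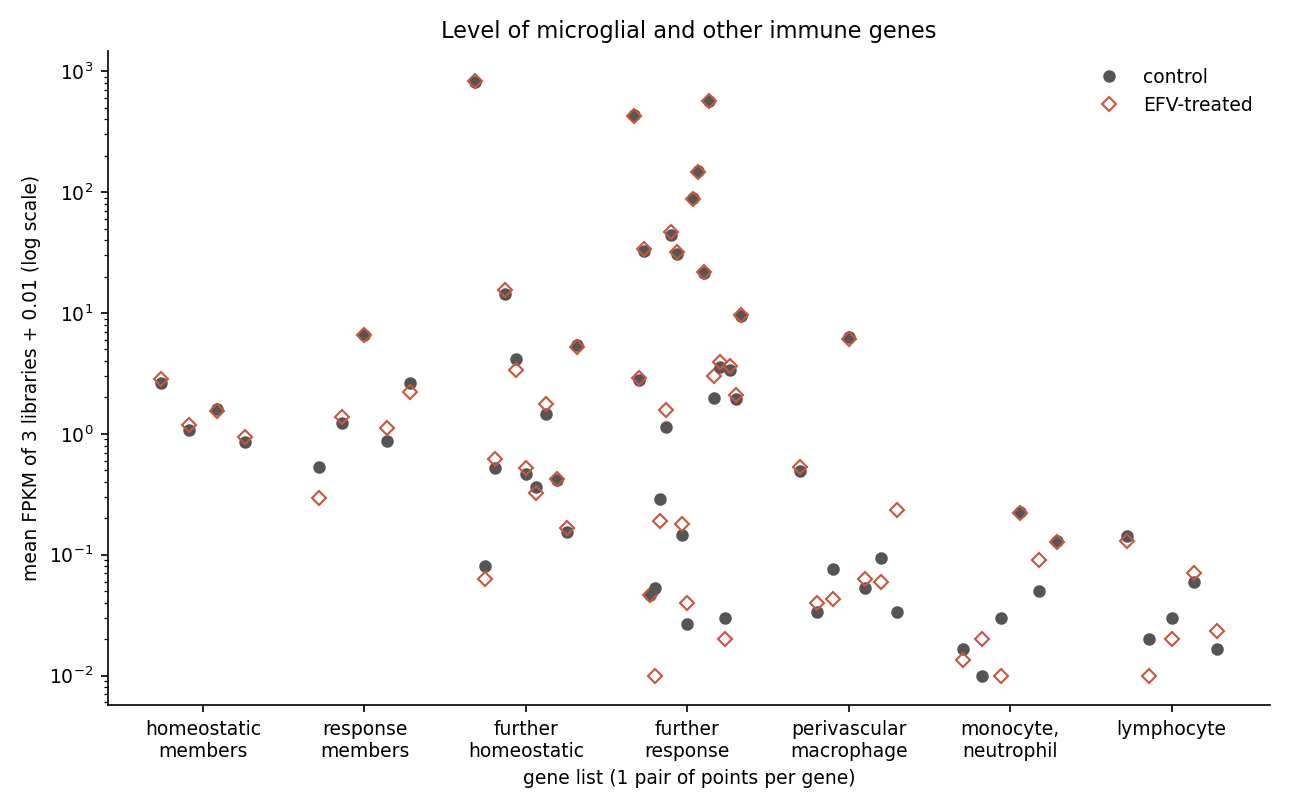
Mean FPKM plus 0.01 on a log scale (vertical axis) of each listed gene in control (filled circles) and EFV-treated (open diamonds) libraries, by gene list. Homeostatic and response members lie between 0.28 and 6.56 in mean FPKM, while markers of monocytes, neutrophils and lymphocytes lie below 0.3; the 1 high point among perivascular macrophage markers is Lyve1.

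Defining markers of other immune cells were at or near 0. All 6 markers of monocytes and neutrophils and the 5 listed of 7 lymphocyte markers were below 10 counts in every library, and the summed FPKM of the former was 0.19 to 0.54 in control and 0.19 to 0.60 in EFV-treated libraries. The summed FPKM of the lymphocyte markers was 0.11 to 0.35 and 0.12 to 0.31. Ccr2, the receptor of recruited monocytes, had at most 1 read in any library, and Cd3e, of T cells, likewise. Of 7 markers of perivascular macrophages, Mrc1 had 2 to 15 reads and Cd163 had 1 to 7 reads, and Lyve1, which vessels also make, was the only abundant one, with a mean FPKM in control of 6.38 ± 0.217 and in EFV-treated retinas of 6.07 ± 0.169 (SD, n = 3). The members named as homeostatic therefore had more reads than the markers of these other cells, apart from Lyve1, in these libraries. This did not hold for every homeostatic gene. Fcrls had 1 to 5 reads and Slc2a5 had 8 to 16 (both named after their values were seen), beside 7 to 18 for the macrophage marker Cbr2. Reads are not scaled to gene length.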

How the data were processed

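RNA from pooled retina plus RPE of 9-month-old 5XFAD mice was sequenced in 6 libraries, 3 control and 3 EFV-treated, grouped by the sample labels. The authors' expected counts, as deposited, were estimated per gene with RSEM 1.2.12 after alignment with Bowtie2 2.2.5 to mm10, and the deposited FPKM divide them by gene length and library total. The submitters' processing notes also name HISAT2 2.0.4. The strand setting of the counting is not given in the sources used here. A gene absent from a library's file was taken as 0.

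Expected counts were rounded to whole numbers. Genes that reached 10 counts in 3 or more libraries were tested with edgeR 4.0.16 (R 4.3.3; quasi-likelihood, TMM scaling, group as the only term, two-sided, Benjamini-Hochberg over all genes tested). Normalized counts are CPM, counts scaled to the effective library size. Depth was even (total counts of 23455167 to 24590278), and the TMM factors were 0.984 to 1.01. The chi-square per degree of freedom between any 2 libraries was at least 5.51, so none was a duplicate. The fit was tested on simulated data. At an adjusted p of 0.05 (edgeR) it recovered 64 of 99 genes changed 1.5-fold and 77 of 98 changed 2-fold, with 10 false calls. The changed genes were drawn from all genes tested, and recovery at the counts of the 9 genes was not measured. Alternatives were RLE, upper quartile and total count scaling, other count minimums, DESeq2 1.42.0, limma 3.58.1 on log2 FPKM with pseudocounts of 0.1 and 1, a Poisson model, a replicate block and leaving out each library. The fits of Aif1 without a count minimum and the Y-linked genes were added after the data were seen. Members and lists were chosen with earlier results of these data known. Besides the 9 members, genes were named by rule: from each list the 2 highest in mean FPKM, the 2 with the smallest unadjusted p and any with an unadjusted p of 0.05 or less, plus the ligands, Spi1, Irf8 and the 5 genes most like the members. Some genes that the rule names are not reported here. Markers at or near 0 were named after their values were seen. Promoters and gene positions are from RefSeq (GRCm38.p6), in which 17680 of 17705 gene identifiers were found.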

Additional observations from a re-analysis of the deposited data

How the results depend on the processing

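The count of the 9 genes called was 0 at an adjusted and at an unadjusted p of 0.05 under the other scalings, count filters, DESeq2, limma, Poisson and replicate block fits and with each library left out, apart from Aif1 in limma and Poisson fits without a count minimum (unadjusted p of 0.0272 to 0.0356). The count minimum of 30 left Trem2 untested. Over all genes, the count at an adjusted p of 0.05, 0 in edgeR, was 11 in DESeq2, 2043 in the Poisson model and 0 to 1 when each library was left out (1 without EFV 1). The count at an unadjusted p of 0.05, 472 in edgeR, was 270 in DESeq2, 3901 in the Poisson model and 389 to 576 with each library left out. The replicate block gave 0 and 520, and took Olfml3 to an unadjusted p of 0.0418 (-0.35). The labels do not say whether libraries of the same replicate number in both groups are paired. The correlations of deviations from the group mean were 0.124, 0.0729 and 0.102 for the same number. For different numbers they were -0.0976 to -0.00917. Each library thus correlated best with its own number. The deviations within a group sum to 0, so positive values for the same number force negative ones for different numbers. No conclusion on pairing is drawn from these values. With all libraries, none of the 85 alternative values of the 9 genes changed sign. Those of Il18 (0.0237 and 0.0204 in limma with pseudocounts of 0.1 and 1) and Ptpn6 (0.0232 in limma with a pseudocount of 0.1) turned positive. With each library left out, the log2 fold change crossed 0 for Tmem119 (-0.0105 to 0.22), P2ry12 (-0.19 to 0.0146), Cd68 (-0.0401 to 0.28), Ctss (-0.16 to 0.0643), Apoe (-0.11 to 0.0142), C1qb (-0.17 to 0.0675), Cst3 (-0.0326 to 0.0794), Cx3cl1 (-0.0646 to 0.0164), Il18 (-0.0907 to 0.0258), Inpp5d (-0.0763 to 0.30) and Ptpn6 (-0.30 to 0.23). The cause was not tested. Counting error, 6.30% (Csf1r) to 35.4% (Aif1) for 1 library, limits what these libraries can show.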

Other observations

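General myeloid genes, which microglia share with other macrophages, had mostly lower fitted values in EFV-treated retinas. Of 12 tested, 9 had fitted values below 0 and 3 above, with a median log2 fold change of -0.18 beside 0.001 over all genes tested, and none had an unadjusted p of 0.05 or less (edgeR). The summed FPKM of the 12 was 21.4, 23.3 and 21.6 in control libraries 1, 2 and 3. It was 19.7, 20.2 and 19.9 in EFV libraries 1, 2 and 3, so the groups did not overlap in this sum. C1qa, C1qb and C1qc, with mean FPKM of 4.41, 4.01 and 3.83 over all libraries, weigh most in the sum. How often sums over other genes do not overlap was not computed. Ly86, which encodes a partner of an innate immune receptor, had 49, 45 and 42 reads in control and 42, 37 and 34 in EFV-treated libraries, with a log2 fold change of -0.29 ± 0.20 (SE, edgeR, unadjusted p = 0.181). The complement genes of microglia had log2 fold changes of -0.18 ± 0.15 for C1qa, -0.07 ± 0.17 for C1qb and -0.17 ± 0.14 for C1qc (named after its values were seen). Ly86 and C1qc were the 2 of the 12 whose groups did not overlap in normalized counts, both lower in EFV-treated retinas, where 4.18% of all genes tested were. Fcer1g, an adaptor like TYROBP, had 22, 51 and 28 reads in control and 23, 23 and 29 in EFV-treated libraries, and its log2 fold change of -0.47 ± 0.36 came to -0.003 without control 2.

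Inflammatory genes were sparse. Of 11 in the list, 10 were listed in the libraries and 5 were tested, 3 with fitted values above 0 and 2 below. Il1a, which encodes interleukin 1 alpha, had 14, 11 and 13 reads in control and 26, 21 and 14 in EFV-treated libraries 1, 2 and 3, without overlap in normalized counts, a pattern of 3.95% of all genes tested. Its log2 fold change was 0.65 ± 0.33 (SE, edgeR, unadjusted p = 0.0771, adjusted p = 0.999) and ranged from 0.44 (without EFV 1) to 0.86 (without EFV 3, unadjusted p = 0.0279) when each library was left out. Nfkb1, a subunit of the transcription factor downstream of interleukin 1, had a log2 fold change of 0.12 ± 0.07 (unadjusted p = 0.145). Il18, of the same cytokine family, had one of -0.03 ± 0.11 (unadjusted p = 0.810). Tnf, Il1b, Ccl2, Cxcl10 and Nlrp3 had too few reads to be tested.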
